A study of Mus musculus with 15 samples.

Results

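Complement components and receptors were followed through the postnatal maturation of the mouse auditory nerve as 9 genes: C1qa, C1qb and C1qc, which encode the chains of C1q, C3 and C4b, which encode the central cleaved components, and C3ar1, C5ar1, Itgam and Itgb2, which encode receptors. They were chosen by gene symbol and all 9 were found among the 18536 genes of the deposited table. RNA sequencing was done on auditory nerve microdissected from the cochleae of mice 3, 7, 14 and 21 days after birth (P3 to P21) and of adults, whose libraries carry the title CTRL and no age in days. There were 3 libraries per age and 15 in all, each made from the 2 cochleae of 1 mouse. Neither strain, sex nor any treatment was given in the labels. Between 35250155 and 42258736 reads per library were recovered from the deposited values, and levels are given as the authors' normalized read counts (reads divided by 1 size factor per library). Markers of the labelled tissue were present at all ages, with summed levels from 55338 to 454870 for 10 neuron markers and from 225360 to 1547900 for 10 Schwann cell markers. Osteoclast, neutrophil, astrocyte and oligodendrocyte markers were present too. At P14 the sums lay between 17258 and 71952 for astrocyte markers and between 13895 and 67911 for oligodendrocyte markers. The Y-linked gene Eif2s3y was at 0 or low in 4 libraries, namely replicate 1 at P14, replicates 1 and 2 at P21, and adult replicate 3.

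C1q recognises immune complexes, dying cells and synapses tagged for removal, and starts the classical pathway by activating the proteases C1r and C1s, which cleave C4 and C2. The resulting convertase cleaves C3, whose fragments mark surfaces for phagocytosis through complement receptor 3, the integrin formed by the products of Itgam (CD11b) and Itgb2 (CD18), while the small fragments C3a and C5a signal through the receptors encoded by C3ar1 and C5ar1. In nervous tissue C1q and these receptors are made mainly by macrophages and microglia, CD11b and CD18 also by neutrophils, whereas C3 and C4 can also come from glia, fibroblasts and endothelial cells.

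The 9 genes took 3 courses with age. The C1q genes, C3ar1, Itgam and Itgb2 were highest at P3 and lowest in the adult, C5ar1 overlapped between all ages from P3 to P21 and was lowest in the adult, and C3 and C4b were lowest at P7 and highest in the adult. Tested jointly over the 5 ages with limma, all 9 members differed between ages at an adjusted p under 0.05, where 85.4% of the 16723 genes tested did so. The highest of the 9 joint adjusted p-values was 0.0113, for C5ar1, and without adult replicate 2 it was 0.0760 for that gene. All 9 members had normalized counts above the filter on low values in every library.

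**Figure D1:**
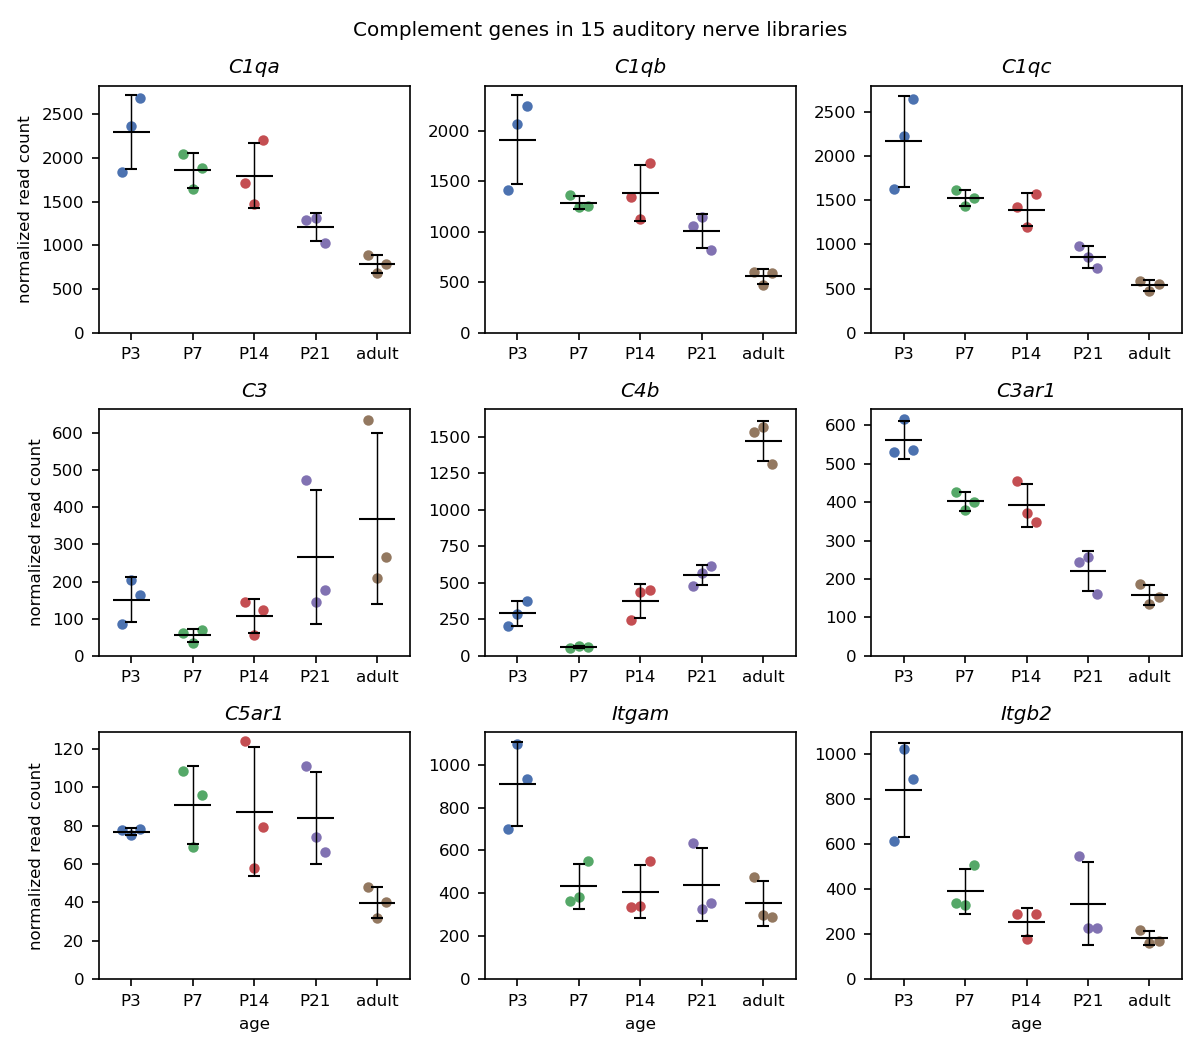
Normalized read counts (linear axes starting at 0) of the 9 complement genes by age. Each point is 1 library, horizontal bars are means and whiskers SD over 3 libraries. C1qa, C1qb, C1qc and C3ar1 are lowest in the adult, and C4b is above 1310 in every adult library and between 54.2 and 67.8 at P7.

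The 3 C1q genes lie side by side on the minus strand of chromosome 4 (mm10), C1qb from 136880145 to 136886177, C1qc from 136889802 to 136892914 and C1qa from 136895916 to 136898844, with 3624 bases between C1qb and C1qc and 3001 between C1qc and C1qa. C1qa had 1844, 2363 and 2687 normalized counts in the P3 libraries, 2043, 1649 and 1890.4 at P7, 1713, 1471 and 2206 at P14, 1290.3, 1312 and 1024 at P21, and 889.7, 686 and 789 in the adult. Every adult library lay below every library of the 4 younger ages, and the P3, P7 and P14 libraries overlapped. C1qb had 1411, 2069 and 2248 at P3, 1367, 1242 and 1258 at P7, 1346, 1123 and 1677 at P14, 1061, 1141 and 815 at P21, and 602, 474 and 594 in the adult. Every adult library again lay below every younger one, and P14 overlapped both P7 and P21. C1qc had 1628, 2230.2 and 2654 at P3, 1612, 1441 and 1529 at P7, 1419.5, 1194 and 1572 at P14, 988, 859 and 735 at P21, and 586, 470.3 and 552 in the adult. For C1qc the P21 libraries lay below all P14 libraries and above all adult libraries.

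From P3 to the adult the C1q genes fell in concert, C1qc by the most. Adult libraries averaged 536 ± 59.4 normalized counts for C1qc against 2171 ± 515 at P3 (SD, n = 3 each), a 3.98-fold lower level (log2 fold change -1.99 ± 0.17 SE, limma adjusted p = 1.59e-07). For C1qb the adult level was 3.38-fold lower (log2 -1.76 ± 0.19 SE) and for C1qa 2.90-fold lower (log2 -1.53 ± 0.17 SE), with limma adjusted p-values of 1.81e-06 and 2.64e-06. At P7 against P3, C1qb (log2 -0.54 ± 0.19, adjusted p = 0.0466) and C1qc (log2 -0.48 ± 0.17, adjusted p = 0.0461) fell by limma, while C1qa stood at log2 -0.29 ± 0.17 (adjusted p = 0.216). Both calls were close to the threshold: the adjusted p lay between 0.0535 and 0.180 for C1qb when 1 of 9 libraries was left out (replicates 2 and 3 at P3, all 3 at P7, replicate 1 at P14 and at P21, replicates 1 and 3 in the adult), and between 0.0515 and 0.197 for C1qc when any of these except P21 replicate 1 was. They were also lost without the libraries low in Eif2s3y (0.0563 and 0.0591) and without those highest in neutrophil markers (0.315 and 0.241), and for C1qc with both ages alone in the fit (0.0560). None of the 3 was called at P14 against P7, where their log2 fold changes lay between -0.14 and 0.08. At P21 against P14 C1qc fell 1.62-fold (adjusted p = 0.0199). That call was lost without P14 replicate 3 (0.0942) or P21 replicate 3 (0.0671), with a replicate block (0.0759), with both ages alone in the fit (0.105), without the libraries low in Eif2s3y (0.0887) and without those highest in neutrophil markers (0.101). C1qa missed the threshold (1.47-fold lower, adjusted p = 0.0567). It passed without P3 replicate 1 (0.0419) or P14 replicate 2 (0.0424), with TMM scaling (0.0458), and by DESeq2 (0.0157) and edgeR (0.0450). In the adult against P21 C1qa, C1qb and C1qc fell 1.53-fold, 1.80-fold and 1.60-fold by limma (adjusted p between 0.003 and 0.00976). With the 4 libraries low in Eif2s3y left out, which leaves 1 at P21, the log2 fold change of this step was -0.39 for C1qa (adjusted p = 0.329, against -0.62 with all libraries), -0.61 for C1qb (adjusted p = 0.162, against -0.85) and -0.48 for C1qc (adjusted p = 0.210, against -0.68).

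The proportions of the C1q transcripts varied between ages, and these ratios were not tested. The ratio of C1qa to C1qb counts averaged 1.21 ± 0.08 at P3, 1.44 ± 0.10 at P7, 1.3 ± 0.02 at P14, 1.21 ± 0.05 at P21 and 1.42 ± 0.08 in the adult (SD, n = 3), with no steady course. The ratio of C1qc to C1qb averaged 1.14 ± 0.05 at P3, 1.19 ± 0.03 at P7, 1.02 ± 0.07 at P14, 0.862 ± 0.095 at P21 and 0.965 ± 0.033 in the adult (SD, n = 3). All P3 and P7 libraries were above a ratio of 1 and all P21 and adult libraries below it. Divided by exon length, C1qa had the highest mean of the 9 genes at each age, with 758 normalized counts per kilobase in the adult and 2209 at P3.

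The sequences just before the starts of C1qb and C1qc, which fell together, are printed with those of Itgam, which also fell, and of C3, which did not. They are the 250 bases before the RefSeq start on build GRCm38.p6 (mm10), 5′ to 3′ on the strand of the gene, with matches to the motifs searched in capitals. RefSeq promoter sequences were matched for 6 of the 9 members, C1qb, C1qc, C3ar1, C5ar1, Itgam and C3.
C1qb promoter, chr4:136886201-136886450, minus strand: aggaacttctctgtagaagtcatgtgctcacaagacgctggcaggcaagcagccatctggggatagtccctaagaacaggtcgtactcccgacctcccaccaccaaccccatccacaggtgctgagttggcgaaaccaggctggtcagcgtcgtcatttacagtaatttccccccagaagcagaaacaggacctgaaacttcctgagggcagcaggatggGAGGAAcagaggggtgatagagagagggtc
C1qc promoter, chr4:136892915-136893164, minus strand: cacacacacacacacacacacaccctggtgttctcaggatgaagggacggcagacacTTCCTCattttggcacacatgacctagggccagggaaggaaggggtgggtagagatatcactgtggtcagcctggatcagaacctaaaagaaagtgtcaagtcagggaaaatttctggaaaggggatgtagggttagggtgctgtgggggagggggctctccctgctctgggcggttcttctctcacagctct
Itgam promoter, chr7:128062390-128062639, plus strand: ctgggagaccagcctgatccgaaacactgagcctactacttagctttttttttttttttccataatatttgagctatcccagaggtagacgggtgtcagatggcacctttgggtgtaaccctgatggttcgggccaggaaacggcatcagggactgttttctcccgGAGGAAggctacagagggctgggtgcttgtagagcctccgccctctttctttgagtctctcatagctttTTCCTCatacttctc
C3 promoter, chr17:57228137-57228386, minus strand: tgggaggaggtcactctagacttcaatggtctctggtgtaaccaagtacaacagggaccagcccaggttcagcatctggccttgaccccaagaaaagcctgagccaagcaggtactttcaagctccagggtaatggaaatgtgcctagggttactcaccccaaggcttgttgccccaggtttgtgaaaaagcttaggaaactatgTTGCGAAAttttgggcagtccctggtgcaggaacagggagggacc
Both strands were searched for 4 motifs, GAGGAA, a core bound by the myeloid factor PU.1, the interferon-stimulated response element, TTCNNNGAA, a GAS element bound by STAT factors, and TTGCNNAA, a C/EBP motif. GAGGAA was found from 30 to 25 bases before the start of C1qb on the strand of the gene, from 193 to 188 before that of C1qc on the opposite strand, and at 2 places before Itgam. It was not in the windows of C3ar1, C5ar1 and C3, and 23.3% of 32851 promoter windows of the same length hold it. Of the 6 windows TTGCNNAA was found in that of C3, from 45 to 38 bases before the start (9.56% of all windows). The interferon-stimulated response element and TTCNNNGAA, held by 2.98% and 7.02% of all windows, were in none of the 6. No motif overlapped another in these windows.

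C3ar1, the receptor for C3a, followed the C1q genes. It had 530.1, 618 and 537 normalized counts at P3, 427, 379 and 401 at P7, 456, 371 and 349 at P14, 243, 257 and 161 at P21, and 187, 135 and 153 in the adult libraries. The P7 and P14 libraries overlapped, all P21 libraries lay below them, and P21 replicate 3 fell within the adult range. The adult level was 3.55-fold below that at P3 (log2 -1.83 ± 0.18 SE, limma adjusted p = 7.01e-07). Of the intervals, P21 against P14 was called (1.80-fold lower, log2 -0.85 ± 0.18 SE, adjusted p = 0.0109, but 0.141 with both ages alone in the fit and 0.0791 without the libraries highest in neutrophil markers) and so was adult against P21 (1.38-fold lower, adjusted p = 0.0459). The second call was marginal: the adjusted p lay between 0.0534 and 0.166 when a single library was left out, be it any of those at P3 or P7, replicate 2 at P14, replicate 1 or 2 at P21, or replicate 2 or 3 in the adult. It was 0.943 without the libraries low in Eif2s3y, where the log2 fold change was -0.02, and it also missed the threshold with quantile normalization (0.111), no filter (0.0501), limma-voom (0.0866), both ages alone (0.166), the replicate block (0.0623), no P7 (0.0734) and no libraries highest in neutrophil markers (0.105). P7 against P3 was not called (1.39-fold lower, adjusted p = 0.0605). It was called without P21 replicate 2 (0.0391) or P21 replicate 3 (0.0227), by DESeq2 (0.0242) and limma-voom (0.0239), with both ages alone (0.00826) and without the libraries low in Eif2s3y (0.0200).

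C5ar1, the receptor for C5a, had the lowest adult mean of the 9 genes per kilobase of exon, 15.5 normalized counts. Its 3 P3 libraries had 77.5, 75 and 78.2 normalized counts, the P7 libraries 108, 68.8 and 95.8, the P14 libraries 124, 58.2 and 79.4, the P21 libraries 111, 74.0 and 66.5, and the adult libraries 47.9, 31.7 and 40.1. The ages from P3 to P21 overlapped throughout, and every adult library lay below every younger one. The adult level was 2.05-fold below P21 (log2 -1.04 ± 0.29 SE, limma adjusted p = 0.0103, and 0.154 without the libraries low in Eif2s3y) and 1.93-fold below P3 (adjusted p = 0.0102, and 0.160 with quantile normalization). No earlier interval was called for it, with log2 fold changes between -0.10 and 0.22.

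Itgam and Itgb2, the chains of complement receptor 3, fell at P7 against P3. Itgam had 701, 1094 and 934 normalized counts at P3, 364, 381 and 551 at P7, 337, 339 and 549 at P14, 635, 327 and 357 at P21, and 474, 299 and 289 in the adult. All P3 libraries lay above all others, and those of the 4 later ages overlapped. Itgb2 had 612, 1022 and 888 at P3, 336, 327 and 505 at P7, 288.4, 179.6 and 288.7 at P14, 548, 228 and 229 at P21, and 219, 161 and 170.1 in the adult. Its highest library after P3 was P21 replicate 1, which was also the highest at that age for Itgam. At P7 the level was 2.11-fold below P3 for Itgam (log2 -1.08 ± 0.29 SE, limma adjusted p = 0.0158) and 2.15-fold below for Itgb2 (log2 -1.10 ± 0.33 SE, adjusted p = 0.024). With replicate 2 or 3 left out at P3, or replicate 4 or 5 at P7, the adjusted p lay between 0.0512 and 0.0655 for Itgam and between 0.0755 and 0.0907 for Itgb2. The adult level was 4.51-fold below P3 for Itgb2 (log2 -2.17 ± 0.33 SE, adjusted p = 5e-05) and 2.59-fold below for Itgam (log2 -1.37 ± 0.29 SE, adjusted p = 0.000928). No interval between P7 and the adult was called for either. For Itgb2 the adjusted p was 0.132 at P14 against P7 (0.0477 without P21 replicate 1) and 0.0732 in the adult against P21 (0.0453 without P21 replicate 2, 0.0401 without P21 replicate 3, 0.0241 by DESeq2 and 0.0464 by edgeR). The ratio of Itgam to Itgb2 counts averaged 1.09 ± 0.05 at P3, 1.11 ± 0.04 at P7, 1.65 ± 0.42 at P14, 1.38 ± 0.20 at P21 and 1.91 ± 0.24 in the adult (SD, n = 3).

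C4b, the component cleaved by activated C1s (chromosome 17, 34728381 to 34743897), had the widest course of the 9. It had 206, 288 and 377 normalized counts in the P3 libraries, 54.2, 67.8 and 61.0 at P7, 242, 436 and 449 at P14, 476, 565 and 616 at P21, and 1531, 1568.5 and 1310.1 in the adult. The P3 and P14 libraries overlapped, and no library of P7, P21 or the adult fell within the range of another age. C4b fell 4.58-fold at P7 against P3 (log2 -2.20 ± 0.24 SE, limma adjusted p = 5.25e-05), rose 5.87-fold at P14 against P7 (log2 2.55 ± 0.24 SE, adjusted p = 2.07e-06) and rose 2.66-fold in the adult against P21 (log2 1.41 ± 0.24 SE, adjusted p = 0.000679). P21 against P14 was not called (log2 0.60 ± 0.24, adjusted p = 0.136). The adult level was 5.19-fold above P3 (log2 2.37 ± 0.24 SE, adjusted p = 1.12e-06). These 4 calls held under every alternative run. Per kilobase of exon, C4b averaged 273 normalized counts in the adult, where of the 9 only the C1q genes were higher, and 11.3 at P7.

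C4b has a close paralog, C4a, and how reads that fit both were counted is not given in the sources used here. Of the 5330 windows of 50 bases in the GENCODE transcript of C4b, 35.2% occur unchanged in the longest C4a transcript, and 16.5% of windows of 100 bases do. C4a averaged 114 ± 15.7 normalized counts at P3, 121 ± 8.65 at P7, 96.4 ± 15.7 at P14, 117 ± 18.7 at P21 and 162 ± 14.5 in the adult (SD, n = 3). The C4b to C4a ratio was 2.52 ± 0.43 at P3, 0.506 ± 0.059 at P7, 3.88 ± 1.06 at P14, 4.82 ± 1.03 at P21 and 9.08 ± 0.30 in the adult.

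C3, the component on which all pathways converge (chromosome 17, 57203967 to 57228136), had the largest SE of the 9 genes, 0.54 on the log2 scale. Its values were 86.8, 205 and 163 normalized counts at P3, 61.5, 34.9 and 68.6 at P7, 145, 56.1 and 122 at P14, 474, 146 and 178 at P21, and 634, 210.0 and 265 in the adult. P7 lay below P3 and all adult libraries lay above all P3 libraries, while P14 overlapped both P3 and P7, and P21 overlapped P3 and the adult. No pairwise comparison was called by limma. The adult level was 2.29-fold that at P3 on the log2(value + 1) scale (log2 1.20 ± 0.54 SE, adjusted p = 0.0619). That p was 0.04995 without P3 replicate 2, 0.0384 without P21 replicate 1, 0.0392 without adult replicate 2 and 0.0173 with quantile normalization, and it was 0.0234 by DESeq2, 0.0457 by edgeR and 0.0468 by limma-voom on the recovered reads. At P7 the level was 2.67-fold below P3 (log2 -1.42 ± 0.54 SE, limma adjusted p = 0.0643). That p lay between 0.0406 and 0.0482 when replicate 1 was left out at P3, P21 or the adult, or replicate 2 at P21, and it was 0.0242 by DESeq2 and 0.0243 with both ages alone. Without adult replicate 1, whose C3 was highest, the adult difference from P3 was log2 0.72.

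**Figure D2:**
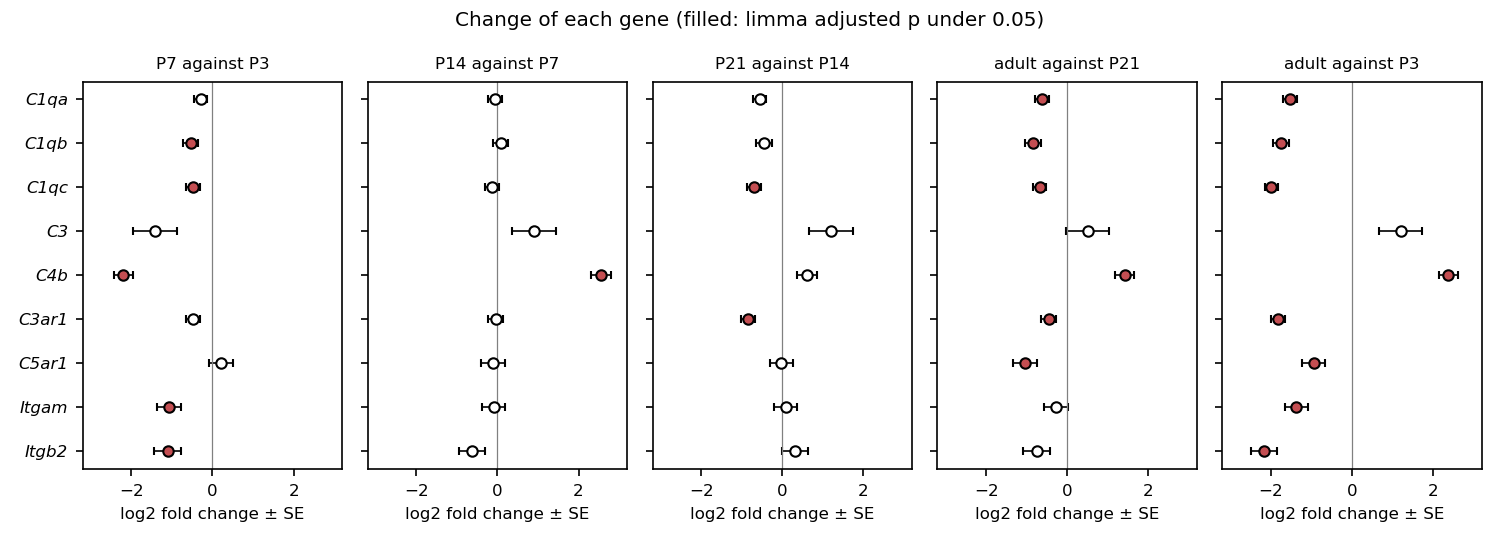
Log2 fold change (horizontal axis, ± SE) of each gene in 5 comparisons of ages, the later age over the earlier. Filled points have a limma adjusted p under 0.05. C4b is the gene with calls in both directions, and P14 against P7 has 1 filled point.

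Counted over the 9 members, 5 fell and 0 rose at P7 against P3 (C1qb, C1qc, C4b, Itgam and Itgb2), where 12.8% of all tested genes fell and 15.4% rose. The number was 1 without P3 replicate 2, P3 replicate 3, P7 replicate 4 or P7 replicate 5 and 3 without P7 replicate 6, P14 replicate 1 or adult replicate 3, with C4b called in each. At P14 against P7, 1 rose (C4b) and 0 fell, where 24.3% of all genes rose and 23.8% fell, so the members changed no more often than genes at large. That count was 1 rising and 1 falling without P21 replicate 1. At P21 against P14, 2 fell (C1qc and C3ar1) and 0 rose, with 6.0% of all genes falling and 3.29% rising, and 1 fell without P14 replicate 3 or without P21 replicate 3. Between P21 and the adult 5 fell (C1qa, C1qb, C1qc, C3ar1 and C5ar1) and 1 rose (C4b), with 24.1% of all genes falling and 25.4% rising. Over the whole span, adult against P3, 7 fell and 1 rose, with C3 the gene not called, where 34.3% of all genes fell and 34.4% rose. The median log2 fold change of the members was -1.53 in the adult against P3, beside -0.01 over all genes tested, and it was -0.54 at P7 against P3, beside -0.02. Without the 4 libraries low in Eif2s3y, which leaves 1 library at P21 that is assumed to vary like the other ages, 0 members fell and 1 rose in the adult against P21, and at P21 against P14 1 fell.

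The members were measured in bulk tissue, so fewer cells of a type and less RNA per cell cannot be told apart. Macrophage markers went down with the C1q genes: all 21 listed genes were tested, 18 fell and 1 rose (Mertk) in the adult against P3, and their summed level was between 15339 and 18245 normalized counts in the adult and between 39242 and 51640 at P3. None was at 0 in all libraries of an age. In the adult against P3, 34.3% of all genes fell and 34.4% rose. Csf1r, the receptor for colony stimulating factor 1, was 4.83-fold lower in the adult than at P3, Adgre1 (F4/80) 5.30-fold lower, Cd68 14.1-fold lower and Cx3cr1, the fractalkine receptor of microglia and resident macrophages, 1.97-fold lower, all called by limma. Osteoclasts share Csf1r expression with macrophages, and the sum of the 10 osteoclast markers was between 2860 and 3230 in the adult and between 97863 and 168790 at P3. All 10 of these markers fell in the adult against P3. The part of either cell type in the fall of the C1q genes was not tested.

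Set against single macrophage markers, C1q gave different courses. The summed C1q counts per Cx3cr1 count were 3.74 ± 0.41 at P3, 4.0 ± 0.20 at P7, 3.51 ± 0.36 at P14, 3.76 ± 0.42 at P21 and 2.19 ± 0.18 in the adult (SD, n = 3), with all adult libraries below all others. Per Adgre1 count they were 5.28 ± 0.35 at P3, 4.55 ± 0.18 at P7, 7.24 ± 0.48 at P14, 7.86 ± 1.33 at P21 and 8.42 ± 1.07 in the adult, a higher ratio in the adult. Per Csf1r count they averaged 0.567 ± 0.059 at P3, 1.34 ± 0.22 at P21 and 0.815 ± 0.063 in the adult. The direction of the ratio thus depended on the marker chosen. The ratios were not tested, and Adgre1 was chosen as a divisor after its values were seen.

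**Figure D3:**
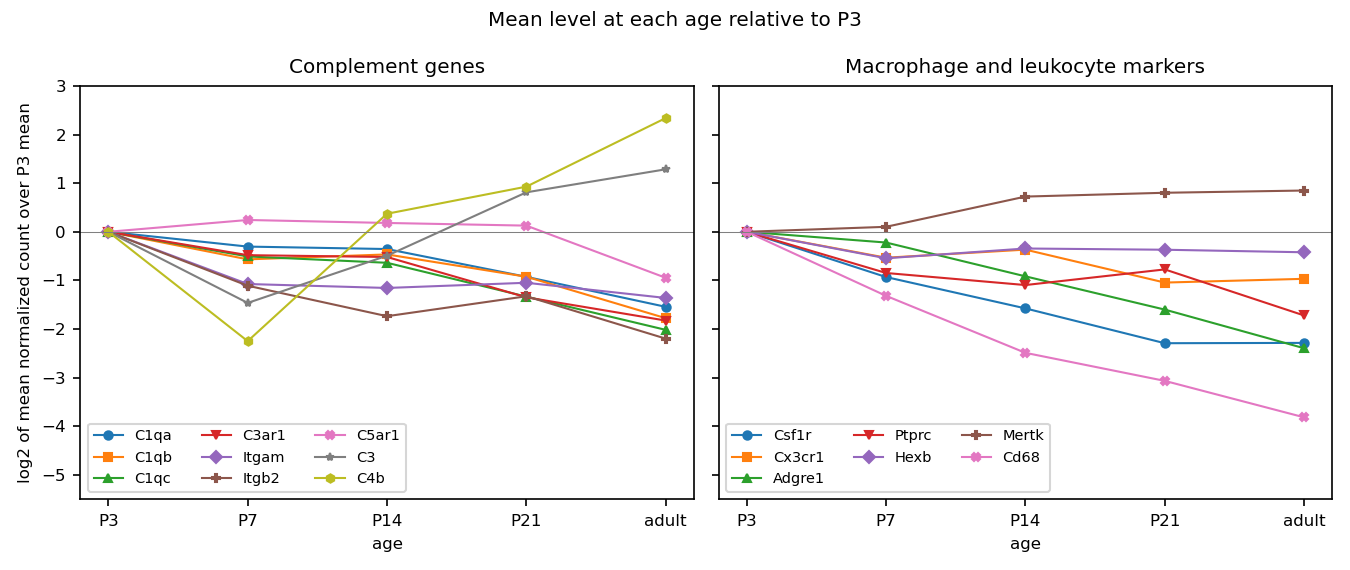
Log2 of the mean normalized count at each age over the P3 mean (vertical axis), for the 9 complement genes (left) and for 7 macrophage and leukocyte markers (right), each line 1 gene over 3 libraries per age. The C1q genes end between the lines of Cx3cr1 and Csf1r, while C3 and C4b end above 0.

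Neutrophil markers varied widely between libraries of 1 age. Of 12 listed, 11 were in the table, all passed the filter and none was at 0 in all libraries of an age. In the adult 9 of the 11 fell against P21, where 24.1% of all genes fell, and 3 fell against P3, where 34.3% did. None of the 11 was called at P7, P14 or P21 against the age before. Their summed level was between 2272 and 5216 normalized counts at P3, between 758 and 2233 at P7, between 1656 and 6751 at P14, between 2872 and 17705 at P21 and between 339 and 3197 in the adult. The library with the highest neutrophil sum at its age (P3 replicate 2, P7 replicate 6, P14 replicate 1, P21 replicate 1 and adult replicate 1) was also the highest in C3 at 5 of 5 ages, in Itgam and Itgb2 at 4 of 5, in C3ar1 and C5ar1 at 3 of 5, in C1qc at 2 of 5, in C1qa and C1qb at 1 of 5 and in C4b at 0 of 5. The library with the highest osteoclast sum was the same one at all 5 ages, so its counts for all 9 genes were necessarily the same. That with the highest macrophage sum differed at P14 alone (replicate 3). It was the highest in Itgam and Itgb2 at 5 of 5 ages and in C3 at 4 of 5. Because the libraries are nearly the same, these matches cannot tell the neutrophil, osteoclast and macrophage sets apart. The library with the highest astrocyte sum was the highest in C1qa and C1qb at 3 of 5 ages. For C1qc, C3ar1, C4b, Itgam and Itgb2 that held at 2 of 5, and for C3 and C5ar1 at 1 of 5. Without the 5 libraries highest in neutrophil markers, 3 members fell at P7 against P3 (C4b, Itgam and Itgb2), 0 at P21 against P14 and 2 in the adult against P21 (C1qb and C5ar1), while in the adult against P3 the count was again 7 that fell and 1 that rose. That fit holds 10 of the 15 libraries, and the log2 fold changes whose calls were lost at the later steps stayed about as large: at P21 against P14 -0.78 for C1qc and -0.82 for C3ar1, and in the adult against P21 -0.66 for C1qa, -0.64 for C1qc and -0.50 for C3ar1. The libraries it leaves out are also those highest in osteoclast markers. The part of neutrophils in the values of C3, Itgam and Itgb2 was therefore not tested.

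**Figure D4:**
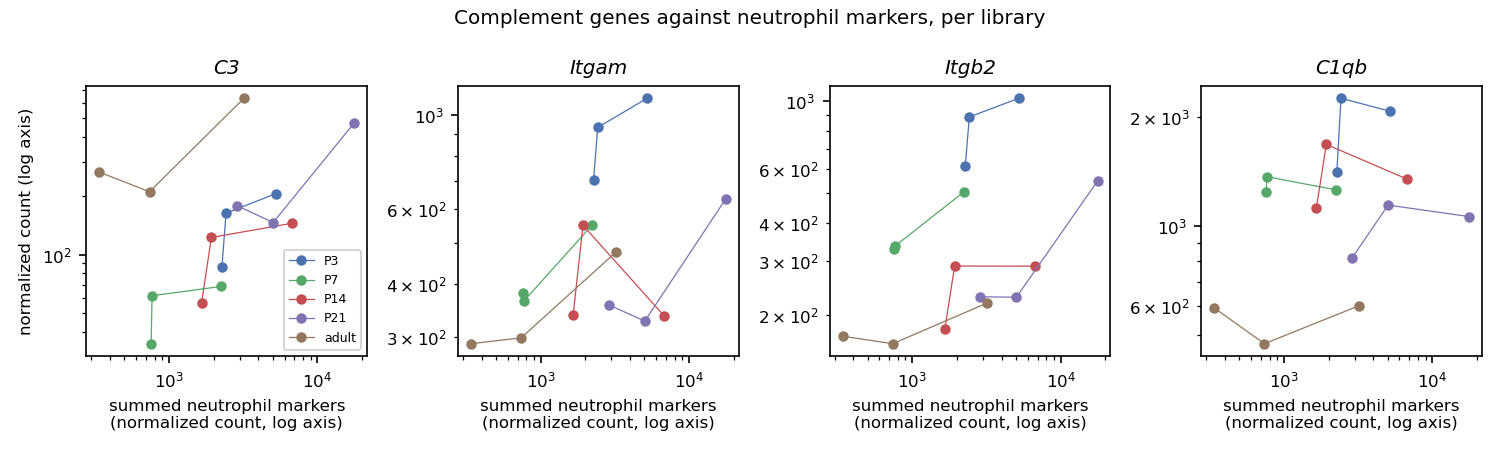
Normalized counts of C3, Itgam, Itgb2 and C1qb (vertical log axes) against the summed normalized counts of 11 neutrophil markers (horizontal log axis). Points are libraries, lines join the 3 libraries of 1 age. P21 replicate 1, at 17705, is the highest of its age for C3, Itgam and Itgb2 but not for C1qb.

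Interferon response genes fell at P7 against P3, as C4b did. All 16 listed genes fell at P7 against P3, where 12.8% of all genes fell. At P14 against P7, 6 rose and 0 fell, where 24.3% and 23.8% of all genes did. The summed level of the 16 was between 11882 and 28192 normalized counts at P3, between 3957 and 4182 at P7, between 6116 and 6182 at P14, between 7086 and 8845 at P21 and between 9373 and 11608 in the adult. The library with the highest interferon sum at its age was the highest in C4b at 3 of 5 ages and in C3 at 0 of 5. In the adult the interferon sum was below every P3 library while C4b was above every one. Neuron markers were higher in the adult, with 8 of 10 rising against P3, where 34.4% of all genes rose. Their sum was between 55338 and 87739 at P3, between 87202 and 97659 at P7 and between 427050 and 454870 in the adult. The sum does not show single genes. At P7 against P3, 5 of the 10 neuron markers rose and 0 fell, where 15.4% of all genes rose. The neuronal genes Csmd1, Sez6 and Sez6l2, which are not among these markers, fell at P7 against P3 (below). Schwann cell markers, of which 7 of 10 rose in the adult against P3, summed to between 225360 and 339100 at P3, between 834460 and 990570 at P7 and between 461700 and 537030 in the adult. Fibroblast markers summed to between 584630 and 889860 at P3, between 417720 and 535860 at P7 and between 66539 and 77088 in the adult. For endothelial markers the sums were 18980 to 19563, 14778 to 16431 and 16958 to 17849 at the same ages. For astrocyte markers they were 22833 to 39113, 25206 to 46507 and 35054 to 49079. The part of any of these in the course of C4b was not tested.

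The rest of the complement system was read from 55 further genes, of which 50 were in the table and 40 passed the filter. Adult levels set against P3 gave 12 genes that rose, 15 that fell and 13 not called, shares close to the 34.4% and 34.3% of all genes. At P7 against P3 2 rose and 10 fell, where 15.4% and 12.8% of all genes did. The counts were 7 and 6 at P14 against P7 (24.3% and 23.8% of all genes), 1 and 1 at P21 against P14 (3.29% and 6.0%), and 8 and 10 in the adult against P21 (25.4% and 24.1%).

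The list of components that start the classical and lectin pathways had 11 genes tested. In the adult against P3, 1 rose (C4a, the paralog of C4b) and 3 fell (C1s2, Masp2 and Fcna). Over all genes tested 34.4% rose and 34.3% fell. C1ra, a protease of the C1 complex, fell at P7 against P3 (log2 -0.82 ± 0.19 SE, limma adjusted p = 0.00728) and rose at P14 against P7 (log2 0.72 ± 0.19 SE, adjusted p = 0.00741), the same 2 directions as C4b. C2, the partner of C4b in the C3 convertase, went the other way, with a rise at P7 (log2 0.68 ± 0.17 SE, adjusted p = 0.0103) and a fall at P14 (log2 -0.48 ± 0.17 SE, adjusted p = 0.0325). Fcna, a ficolin of macrophages, was 3.88-fold lower in the adult than at P3. Both alternative pathway genes that were tested fell in the adult against P3: Cfb (factor B) averaged 61.1 ± 22.9 in the adult against 296 ± 114 at P3, and Cfp (properdin) 338 ± 22.9 against 719.7 ± 83.9. Cfd (factor D) did not pass the filter. Of the terminal pathway 2 genes were tested: C7 rose, with 21.1 ± 0.66 normalized counts in the adult against 4.56 ± 6.27 at P3, and C8g fell (log2 -0.77 ± 0.22 SE). For C7 the P3 libraries ranged from 0.942, the value of 1 read, to 11.8 normalized counts.

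Regulators moved in both directions. Of 18 tested, 10 rose and 5 fell in the adult against P3, where 34.4% of all genes rose and 34.3% fell. The largest rises among them were in neuronal membrane proteins with complement-control domains: Sez6l2 averaged 10124 ± 598 normalized counts in the adult against 1185 ± 330 at P3 (8.77-fold, log2 3.13 ± 0.16 SE, limma adjusted p = 1.92e-09) and Csmd1 3282 ± 151 against 387 ± 113 (8.69-fold, log2 3.12 ± 0.26 SE, adjusted p = 1.74e-07). Csmd2, Sez6 and Susd4 rose 5.72-fold, 4.79-fold and 3.54-fold, while their relative Sez6l fell (log2 -1.42 ± 0.50 SE). Csmd1, Sez6 and Sez6l2 fell at P7 against P3 and rose at P14 against P7, as C4b did. Cd59a, which blocks the membrane attack complex, rose 2.78-fold in the adult against P3. Serping1, the C1 inhibitor, rose 1.61-fold, with its highest mean, 7294 ± 677, at P21. Cfi, a fluid-phase protease that cleaves C3b and C4b, fell: it averaged 41.9 ± 22.3 normalized counts in the adult against 225 ± 42.7 at P3 (5.76-fold lower). Srpx2, a secreted protein that binds C1q, fell 11.3-fold.

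Of 7 further receptors and integrin chains, 4 fell and 0 rose in the adult against P3, where 34.3% of all genes fell and 34.4% rose. Itgax (CD11c), the other complement-binding partner of CD18, averaged 11.8 ± 9.26 in the adult against 209 ± 77.7 at P3. Itgal (CD11a), a partner of CD18 that binds cell adhesion molecules, fell 2.45-fold. C5ar2, the second C5a receptor, fell 3.36-fold, with 3.28 to 8.32 normalized counts in the adult against 16.01 to 26.6 at P3. Cd93, a membrane protein of endothelial and myeloid cells, fell 2.49-fold.

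**Figure D5:**
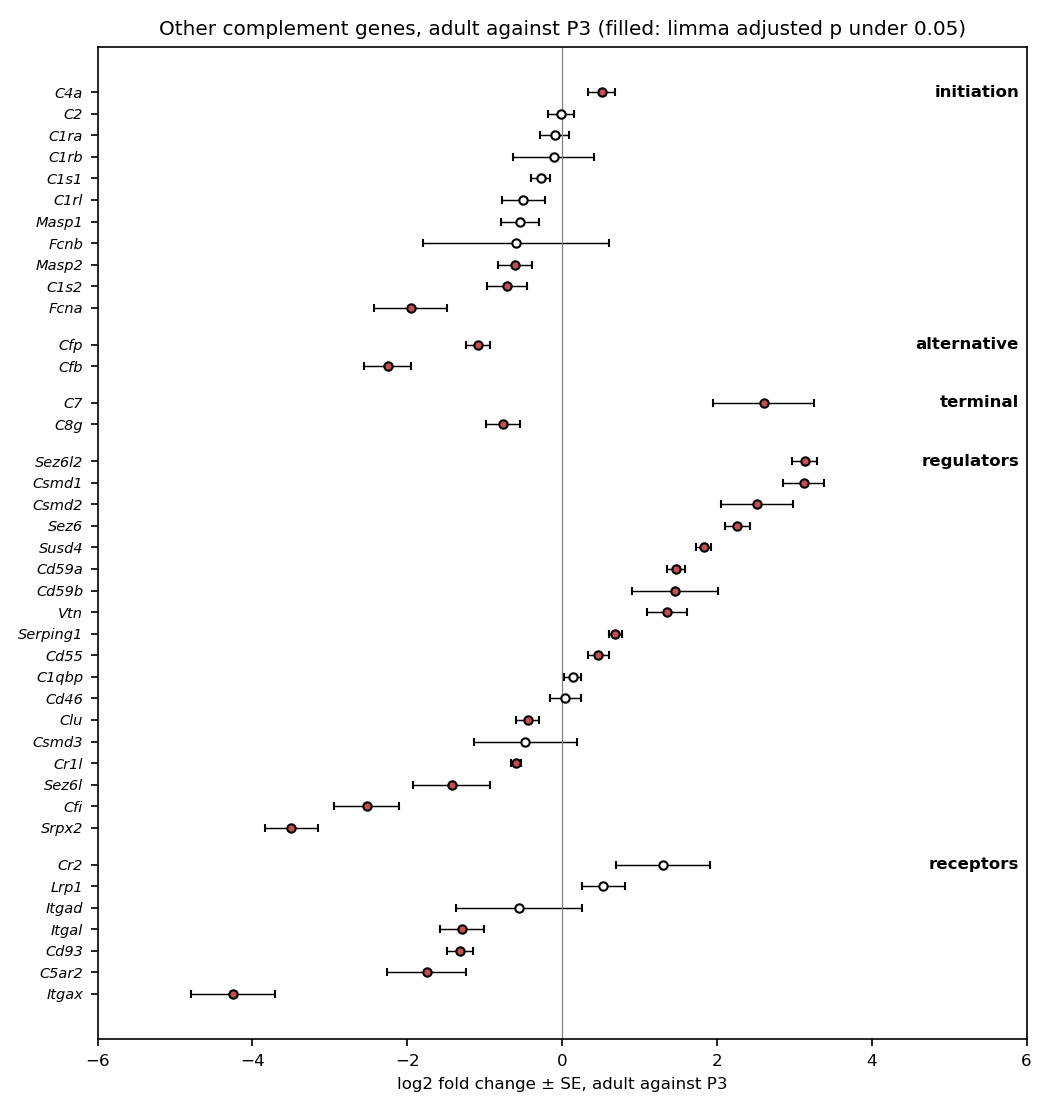
Log2 fold change (horizontal axis, ± SE) in the adult against P3 of the 40 other complement genes tested, grouped by role. Filled points have a limma adjusted p under 0.05. In the group of regulators 10 filled points lie right of 0 and 5 left of it.

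The genes most like each member were sought over the 15 libraries by Pearson's r of log2(value + 1) among 13187 genes with a mean of at least 100, as a description only, since genes that change with age share the 5 ages and the libraries. The other members were left out of this search, and the 3 C1q genes had r between 0.973 and 0.987 with each other. Outside the 9, the closest to C1qa were Cd4 and Tpm1, a tropomyosin (r = 0.975 for both). The closest to C1qb were Unc93b1, a chaperone of endosomal Toll-like receptors, and Tnfaip8l2 (r = 0.969 for both). C1qc was closest to Tpm1 (r = 0.985), followed by Timp1 and Col1a2 (r = 0.98 for both). Itgb2 was closest to Ncf4 (r = 0.977), a subunit of the phagocyte NADPH oxidase, followed by Lgals3 (r = 0.964) and Rac2 (r = 0.957). Itgam was closest to Pik3r5 (r = 0.934), C3ar1 to Entpd2 (r = 0.965), C5ar1 to E2f2 (r = 0.895) and C3 to Zfp775 (r = 0.911). C4b was closest to Nrg3 (r = 0.970), a neuregulin, followed by Slc4a2 (r = 0.965). Nrg3 averaged 233 ± 41.9 at P3, 129 ± 12.8 at P7 and 684 ± 37.7 in the adult.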

How the data were processed

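RNA sequencing of mouse auditory nerve at 5 ages gave 15 libraries of 3 per age, each from 1 mouse. Per the submitters' processing notes, the tools were Partek, TopHat2 and DESeq2 and the genome was mm10. Neither annotation, counting rules nor strand use is given in the sources used here. The deposited signal behaves as reads of each gene scaled by a factor common to the library, since 99.94% of positive values are whole multiples of 1 step per library (tolerance 0.1). The value of 1 read lies between 0.843 and 1.22, and a floor of 3 reads between 2.53 and 3.65 normalized counts, for counting error only. Dividing by the step gave the recovered reads.

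The 16723 genes that reached 10 in 3 or more libraries were tested with limma (3.58.1, R 4.3.3; trend, robust) on log2(value + 1). A single model of all 15 libraries left 10 residual degrees of freedom, and p-values were adjusted by Benjamini-Hochberg over all genes tested (two-sided, called under 0.05). "Rose" and "fell" are used of called genes. Fold changes are on that scale and understate changes of low genes. The edgeR (4.0.16) and DESeq2 (1.42.0) alternatives used the recovered reads. The code was checked on simulated data. Exon lengths are unions of GENCODE M21 basic exons, and gene coordinates come from the deposited table, with each stop lowered by 1 to a 1-based end. Itgam and C3 each overlap 1 gene annotated on the same strand (Gm49368 and Mir6978), which is not used here.

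The 9 members and the gene lists were chosen with earlier results of these data known. All 9 members are named, and any other measured complement gene could be. A listed complement gene is not reported here and is left out of the counts. Other lists allowed up to 4 members with the smallest joint adjusted p, plus Csf1r, Cx3cr1, Cd68 and Ptprc. For each member the closest 3 genes by Pearson's r could be named. Alternatives were quantile and TMM scaling, other filters and pseudocounts, other tools, 2-age fits, each library left out, a replicate block, and dropping the 4 libraries with little Eif2s3y. After the data were seen, fits without P7 and without the library highest in neutrophil markers at each age were added.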

Additional observations from a re-analysis of the deposited data

How the results depend on the processing

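Of 1503 values of the 9 genes under alternatives, 1385 kept direction and side of the threshold, 65 lost a call, 29 gained one and 24 changed sign, none of them called. Quantile or TMM scaling shifted the median of all genes by at most 0.0215 (log2). The cause of a change was not tested. Numbers did not pair the libraries: 5 of 18 same-number pairs had a correlation of deviations over 0.1 (range -0.229 to 0.319), and P7, numbered 4 to 6, could not be blocked.

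At P7 against P3 (5 members and 4703 genes called), leaving out 1 library gave 1 to 7 members called, all falling, and 3080 to 6349 genes. Without the libraries highest in neutrophil markers there were 3 members and 2197 genes. At P14 against P7 leaving out 1 library gave 1 to 2 members called and 0 to 1 falling. At P21 against P14 (2 members, 1553 genes) it gave 1 to 3 members, all falling, and 631 to 1969 genes. There the replicate block gave 1 member, falling, and 645 genes, a fit of both ages alone 0 and 137, a fit without P7 977 genes, DESeq2 2519 genes, the fit without libraries low in Eif2s3y 1 and 754, and that without the libraries highest in neutrophil markers 0 and 574. For the adult against P21 (6 members, 5 falling, 8266 genes), members called were 1 with 0 falling and 3987 genes without the libraries low in Eif2s3y, and 3 with 2 falling without those highest in neutrophil markers. Both ages alone gave 5211 genes. For the adult against P3, 2 members rose under quantile normalization, DESeq2, edgeR and limma-voom, and 1 to 2 with 1 library left out.

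The sign changed as follows (log2 fold change). At P14 against P7 C5ar1 was 0.059 with quantile normalization, and Itgam was 0.024 without the libraries low in Eif2s3y and 0.21 without those highest in neutrophil markers. At P21 against P14 Itgam was -0.27 and -0.34 in the same 2 fits, and C5ar1 was 0.045 in the second. Between P21 and the adult Itgam was 0.076 in the first. With 1 library left out, ranges at P14 against P7 were -0.22 to 0.069 for C1qa, -0.066 to 0.22 for C1qb, -0.16 to 0.034 for C3ar1, -0.39 to 0.15 for C5ar1 and -0.33 to 0.094 for Itgam. At P21 against P14 they were -0.28 to 0.26 for C5ar1, -0.22 to 0.31 for Itgam and -0.11 to 0.52 for Itgb2, and in the adult against P21 -0.51 to 0.013 for Itgam.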
